A study of Homo sapiens with 4 samples.

Results

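The genes described here are 10 members of the BCL2 family of apoptosis regulators, BCL2, BCL2L1, MCL1, BCL2A1, BAK1, BIK, BID, BCL2L11, BMF and PMAIP1, found by symbol among the 58233 genes of the deposited count table. They were listed by name, as family members outside a separate set of p53 targets, and all 10 were present. PMAIP1 was kept although it is also known to respond to p53. RNA-seq was done on MCF10AT, a human mammary epithelial line transformed by activated HRAS. The 4 libraries formed 2 groups of 2: cells with the genotype Bromo+/-, which the labels do not spell out further, and cells labelled Non-target control. The protocol given for all 4 describes lentiviral shRNA delivery and puromycin selection, the series text speaks of EP300 silencing, and both groups share a growth medium supplemented with EGF, hydrocortisone, insulin, cholera toxin and horse serum. Column names carry a further number shared by both libraries of a group, so a group may be 1 clone, and clone and genotype cannot be told apart.

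BCL2-family proteins set whether the outer mitochondrial membrane is opened, the committing step of the intrinsic route of apoptosis. Guardians such as BCL2, BCL-XL (from BCL2L1), MCL1 and BCL2A1 hold the effectors BAK1 and BAX in check. BH3-only proteins, named for the single short helix they share with the rest of the family, bind guardians or effectors and tip the balance towards opening. Detachment from matrix, loss of growth factors and oncogenic RAS signalling are known to act on BH3-only genes in mammary epithelium. Several family genes make isoforms of opposed activity, which gene-level counts do not separate, and protein was not measured.

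Libraries held 10835237 to 11975396 counts. EP300, on chromosome 22, had 1485 and 1426 counts in the Bromo+/- libraries against 1113 and 1281 in the controls, so its transcript was not lower. In all, 13179 genes had enough counts to be tested, and 53.5% of them passed an adjusted p of 0.05 (edgeR quasi-likelihood test), 26.4% higher and 27.1% lower in Bromo+/-. The 2 groups did not overlap in 75.2% of tested genes. All p-values measure the spread between these libraries only, which may be technical. CREBBP, the paralogue of EP300, had 1307 and 1144 counts against 790 and 958 and was called higher (log2 fold change 0.39, SE 0.07, adjusted p = 7.13e-08, edgeR). Its call held under all 12 alternatives. Markers of the labelled epithelial cell type were far lower in Bromo+/-: the 8 listed summed to 8172 to 8432 scaled CPM (counts relative to library size) in the controls and to 1131.5 to 1196 CPM in Bromo+/-, all 7 tested markers were lower, and KRT14 had 0 counts in both Bromo+/- libraries. The 6 fibroblast markers summed to 103 to 106 CPM in Bromo+/- and 41.3 to 43.4 CPM in the controls, with COL1A2 at 1 count in all, but they did not move together: DCN stood at a mean of 79.1 CPM in Bromo+/- and 0.728 in the controls, COL1A1 was also higher, and FAP was lower (16.8 against 38.3 CPM, log2 fold change -1.19). Leukocyte markers (9 listed) summed to 4.52 to 5.13 and 13.1 to 14.4 CPM, with CD3E and MS4A1 at 0. Nearly all of that sum came from CSF1R (a mean of 1.15 CPM in Bromo+/- and 7.62 in the controls) and CD14 (3.55 and 5.98 CPM), both called lower. Endothelial markers (4 listed) summed to 3.34 to 3.81 and 2.94 to 4.49 CPM, with VWF at 0. At these low levels KDR was called higher (a mean of 1.59 CPM in Bromo+/- and 0.598 in the controls). PECAM1 was at 1.99 and 3.07 CPM and did not pass. The part of these markers in the values below was not tested. In bulk RNA, fewer cells of a type and less RNA per cell cannot be told apart.

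Of the 10 members, 8 had enough counts to be tested and BCL2A1 and BMF did not. The guardians BCL2 and MCL1 rose, the guardian BCL2L1, the effector BAK1 and the BH3-only genes BIK, BCL2L11 and PMAIP1 fell, and BID did not pass. That is 7 of 8 tested members against the background of 53.5%, with 5 lower against 27.1% of all tested genes. The members were chosen with earlier results of these data known, so these shares describe them and test nothing. BIK, 1 of the 5, entered the test through its control counts alone. With 10 counts required in every library, BIK was removed and 4 members were lower, beside 3161 of 11935 tested genes. The members' median log2 fold change was -0.24, beside 0.01 over all tested genes. BIK was the exception in size. It lay at the 1.66 percentile of all log2 fold changes, PMAIP1 at the 8.61 percentile and BCL2 at the 89.5 percentile, while the other tested members lay between the 20.1 percentile (BCL2L11) and the 65.7 percentile (MCL1). The groups did not overlap for 7 of the 8, against 75.2% of all tested genes. The number of members lower was 3 with upper quartile scaling, with scaling by library size alone, with the DESeq2 Wald test and without either control replicate, and the number higher was 1 without control replicate 1. The calls lost were among MCL1, BCL2L1, BAK1 and BCL2L11, whose changes were small. The number lower over all 13179 tested genes moved too, from 3570 to 2985 with upper quartile scaling. It was 2794 with library size alone and 2592 with the DESeq2 Wald test.

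**Figure D1:**
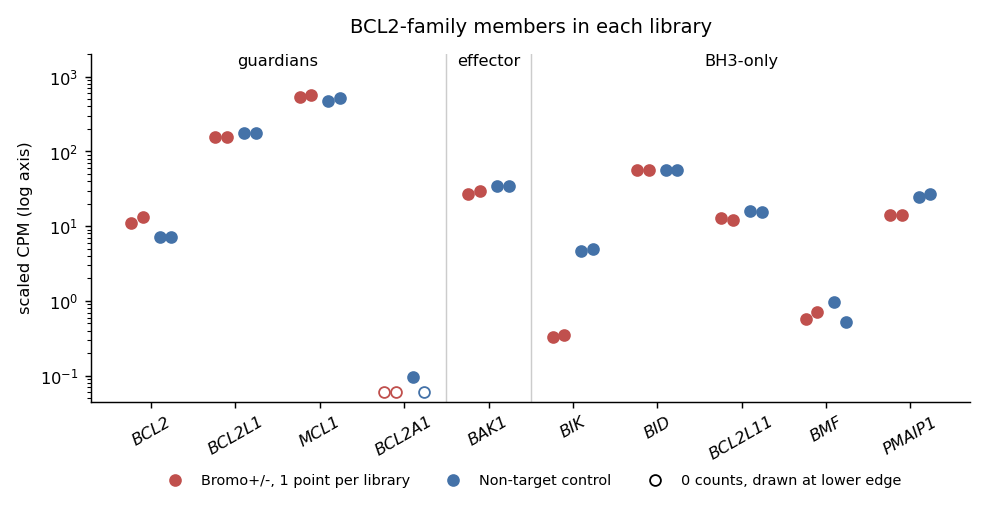
Scaled CPM (log axis) of each of the 10 members, 1 point per library, Bromo+/- in red and Non-target control in blue, with libraries at 0 counts drawn open at the lower edge. BIK falls from about 5 to under 1 CPM, and the BID points of both groups coincide at 55.8 to 56.4 CPM.

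Among the guardians, BCL2 rose most. BCL2, the founding member, which holds BH3-only proteins and effectors at mitochondria and the endoplasmic reticulum, stood at 10.9 and 13.4 CPM in the Bromo+/- libraries and at 7.07 and 7.18 CPM in the controls. Both Bromo+/- libraries were above both controls. The rise was 1.70-fold (log2 fold change 0.76, SE 0.16, adjusted p = 6.41e-06, edgeR quasi-likelihood test). The call held under each of 12 alternatives in normalization, filter, test, block or libraries, with the log2 fold change between 0.61 and 0.91.

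MCL1, a short-lived guardian that binds the products of PMAIP1 and BCL2L11, was the most abundant member. Its level was 538.5 and 570.7 CPM in Bromo+/- and 475.9 and 512.2 CPM in the controls. The groups did not overlap, but the gap between them was narrower than the gap between the replicates of either group. The log2 fold change was 0.17 (SE 0.05, adjusted p = 0.0032, edgeR). With control replicate 1 left out it was 0.11 and no longer passed (adjusted p = 0.263), and with scaling by library size alone it was 0.25.

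BCL2L1, whose main product BCL-XL guards epithelial cells, was the other abundant guardian and went the other way. It stood at 157.5 and 156.4 CPM in Bromo+/- and at 178.6 and 177.8 CPM in the controls. Replicates lay within 1 CPM or so of each other, and both controls were above both Bromo+/- libraries. The fall was small (log2 fold change -0.18, SE 0.06, adjusted p = 0.00374, edgeR). The call was lost under upper quartile scaling (adjusted p = 0.0598), under library size alone (log2 fold change -0.10, adjusted p = 0.133) and when control replicate 1 or control replicate 2 was left out (adjusted p = 0.0617 and 0.0548). The antisense gene ABALON overlaps 43.0% of the exon bases of BCL2L1 but had 52 counts in all, against 7624.

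BCL2A1, a guardian best known from blood cells and as a target of NF-kB, was not detected at a usable level. It had 0 counts in both Bromo+/- libraries and 1 and 0 in the controls, under the 3 counts (0.251 to 0.277 CPM per library) that a count of 0 allows. PTPRC, the defining leukocyte marker, likewise had 1 count in all 4 libraries.

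Promoter sequence was at hand from RefSeq (GRCh38.p14; 250 bases before to 50 after an annotated start) for 8 of the 10 members, all but BIK and MCL1. Shown are the member with the clearest rise, the member with the clearest fall among those with a window, and the member without signal. CG pairs are in capitals.
BCL2, chr18:63319720-63320019, minus strand: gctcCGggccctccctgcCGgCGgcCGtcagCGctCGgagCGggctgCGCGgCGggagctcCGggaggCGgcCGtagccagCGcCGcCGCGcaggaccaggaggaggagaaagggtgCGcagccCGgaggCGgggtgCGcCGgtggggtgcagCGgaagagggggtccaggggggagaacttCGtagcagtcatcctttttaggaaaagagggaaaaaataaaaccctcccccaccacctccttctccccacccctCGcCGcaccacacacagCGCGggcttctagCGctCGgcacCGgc
PMAIP1, chr18:59899746-59900045, plus strand: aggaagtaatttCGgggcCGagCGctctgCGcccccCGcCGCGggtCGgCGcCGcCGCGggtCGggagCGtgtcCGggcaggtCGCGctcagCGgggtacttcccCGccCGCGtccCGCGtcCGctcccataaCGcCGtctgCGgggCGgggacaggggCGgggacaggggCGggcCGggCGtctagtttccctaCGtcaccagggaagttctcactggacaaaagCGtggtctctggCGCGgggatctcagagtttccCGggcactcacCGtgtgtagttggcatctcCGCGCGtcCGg
BCL2A1, chr15:79971147-79971446, minus strand: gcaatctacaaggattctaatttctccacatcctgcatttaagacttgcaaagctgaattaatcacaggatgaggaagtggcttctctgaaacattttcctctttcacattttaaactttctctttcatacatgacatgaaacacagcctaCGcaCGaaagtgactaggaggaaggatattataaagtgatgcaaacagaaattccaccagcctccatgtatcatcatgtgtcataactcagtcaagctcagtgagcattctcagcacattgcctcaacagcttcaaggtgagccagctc
The BCL2 window held 31 CG pairs and the PMAIP1 window 42, against a median of 14 over 35116 windows of the same length, and the BCL2A1 window held 2. The windows shown for BCL2, which rose, and PMAIP1, which fell, were thus both CG-rich. This did not hold for every member called: the window of BAK1, also lower, held 7 CG pairs, and those of BCL2L1 16 and 20. The windows of BID, not called, held 6 to 37. Of 3 motifs searched on both strands, the E-box CAGGTG, read by ZEB and SNAIL repressors, was in 1 of 14 windows of these 8 genes, a BMF window with 2 matches, and in 20.6% of all windows. The AP-1 motif TGANTCA (7.71% of all windows) and a kappa-B motif, GGGA and TTCC set 2 bases apart (1.61%), were in none of the 14. A match describes letters only, and its absence says nothing of the factor.

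BAK1, an effector that forms pores in the outer mitochondrial membrane, was lower. It stood at 27.0 and 29.2 CPM in Bromo+/- and at 34.6 and 34.7 CPM in the controls, with both controls higher. The log2 fold change was -0.30 (SE 0.09, adjusted p = 0.00297, edgeR). DESeq2's Wald test did not call it (adjusted p = 0.0701).

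BIK showed the largest difference of the 8 tested members. It encodes a BH3-only protein of the endoplasmic reticulum membrane that is expressed in epithelia and binds BCL2 and BCL-XL. The gene lies on chromosome 22 (GRCh38, 43110748 to 43129712). It had 4 and 4 counts in the Bromo+/- libraries and 49 and 58 in the controls, or 0.326 and 0.354 against 4.68 and 5.02 CPM. Both Bromo+/- libraries were far below both controls and just above the 3-count floor. The log2 fold change was -3.79 (SE 0.54, adjusted p = 4.03e-19, edgeR), and the ratio of control to Bromo+/- from the summed counts was 13.5 (95% exact binomial interval 6.61 to 32.1, counting error only). BIK entered the test through its control counts alone, and a filter of 10 counts in every library removed it. Under the 11 alternatives that kept it, the log2 fold change lay between -3.85 and -3.68 and passed each time.

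PMAIP1, which encodes NOXA, a small BH3-only protein that pairs with MCL1 and is induced by p53 and by stress signals, fell to nearly the same level in both Bromo+/- libraries. It stood at 14.0 and 14.0 CPM there and at 24.5 and 26.6 CPM in the controls. The groups were well apart. The level was 1.83-fold lower (log2 fold change -0.87, SE 0.11, adjusted p = 2.22e-12, edgeR) and was called under each of 12 alternatives, with the log2 fold change between -0.93 and -0.79.

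BCL2L11 encodes BIM, which binds every guardian and can activate effectors directly, and which is restrained by growth factor signalling. Its level was 12.8 and 11.96 CPM in Bromo+/- and 16.0 and 15.3 CPM in the controls. All control values were above all Bromo+/- values. The log2 fold change was -0.34 (SE 0.13, adjusted p = 0.02, edgeR), a call that ended under 6 of 12 alternatives: upper quartile scaling (adjusted p = 0.059), library size alone (0.0862), the DESeq2 Wald test (0.177), and without Bromo+/- replicate 2 (0.0983), control replicate 1 (0.116) or control replicate 2 (0.0537).

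BID, the BH3-only protein that links death receptors to mitochondria once caspase-8 has cut it, did not differ beyond its error. It stood at 56.3 and 56.4 CPM in Bromo+/- and at 56.4 and 55.8 CPM in the controls. The values interleave. The log2 fold change was 0.01 (95% interval -0.14 to 0.16, adjusted p = 0.946, edgeR). The fitted changes of the other 7 tested members lie outside that interval. The 95% intervals of MCL1, BCL2L1, BAK1 and BCL2L11 nevertheless overlap that of BID.

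BMF, a BH3-only protein tied to the cytoskeleton and known for its part in the death of detached mammary cells, was barely detected. It had 7 and 8 counts in Bromo+/- and 10 and 6 in the controls. The groups overlapped, and the ratio of Bromo+/- to control was 0.929 (95% exact binomial interval 0.428 to 2.01), so a change as large as that of BCL2 was not detectable at this depth.

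**Figure D2:**
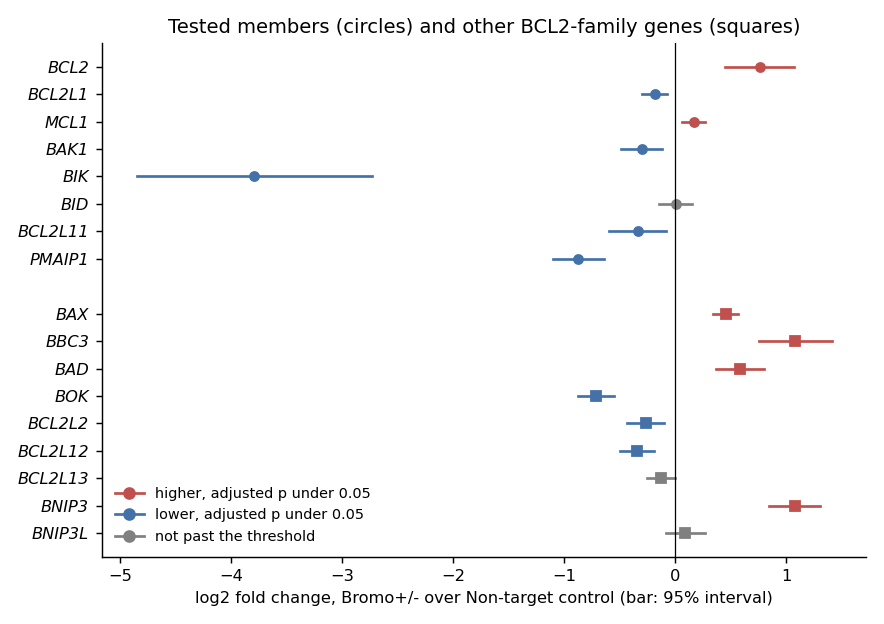
Log2 fold change of Bromo+/- over Non-target control with its 95% interval for the 8 tested members (circles) and 9 tested other family genes (squares), coloured by call. BIK at -3.79 stands far to the left, PMAIP1 and BOK fall by 0.87 and 0.71, and BCL2, BBC3 and BNIP3 lie to the right.

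**Figure D3:**
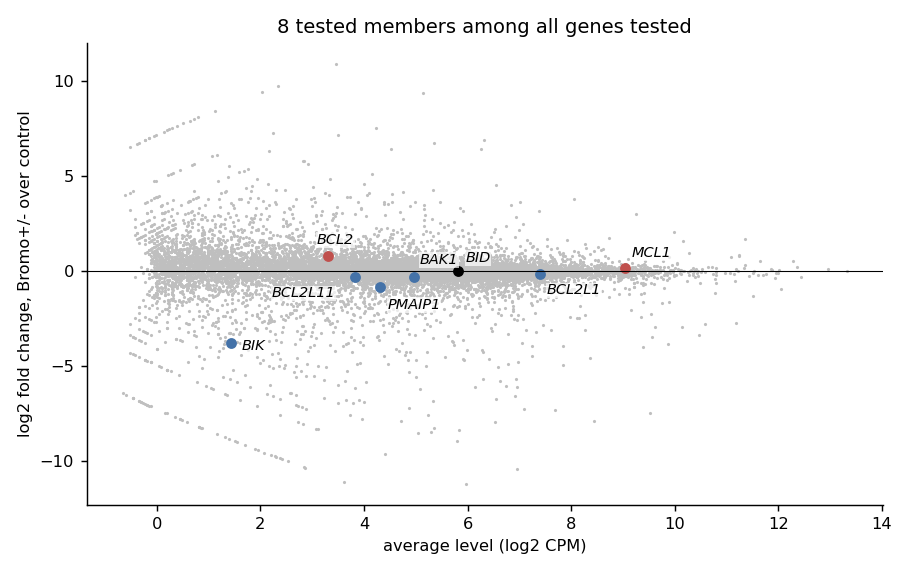
Log2 fold change against average level (log2 CPM) for all 13179 tested genes (grey) with the 8 tested members marked, red for higher, blue for lower and black for not past. BIK lies furthest from 0, PMAIP1 (-0.87) and BCL2 (0.76) come next, and the other members sit closer to 0.

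Levels of different genes were compared per length, as scaled CPM per kilobase of exon (scaled RPKM). In both groups MCL1 was first and BCL2L1 next: MCL1 had a mean level of 127 in Bromo+/- and 113 in the controls, and BCL2L1 of 47.4 and 53.8 scaled RPKM. BAK1, BID and PMAIP1 followed at 12.7, 12.7 and 6.27 scaled RPKM in Bromo+/-, where the ranges of BAK1 and BID overlapped, and at 15.7, 12.6 and 11.4 in the controls. BIK was in the sixth place in the controls, at 5.09 scaled RPKM and above BCL2L11 (2.35) and BCL2 (0.605). In Bromo+/- it was in the eighth place, at 0.357 scaled RPKM and below BCL2L11 (1.86) and BCL2 (1.03). Neighbours in the order did not overlap between their 2 libraries except BAK1 and BID in Bromo+/-.

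Among the members, the make-up of each class differed between the groups as well. The 4 guardian members summed to 172 and 179 scaled RPKM in Bromo+/- and 163 and 171 in the controls, and MCL1 took 71.8% and 73.0% of that sum against 66.6% and 68.4%. BCL2, in spite of its rise, was 0.541% and 0.635% of the guardian sum against 0.368% and 0.356%. The 5 BH3-only members summed to 21.3 and 21.3 scaled RPKM in Bromo+/- and 31.2 and 32.1 in the controls. BIK supplied 1.61% and 1.75% of the BH3-only sum in Bromo+/- against 15.8% and 16.4% in the controls, while the share of BID was 59.4% and 59.7% against 40.7% and 39.1% at an equal level of BID itself.

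Over the members alone, the BH3-only sum over the guardian sum was 0.124 and 0.119 in the Bromo+/- libraries and 0.191 and 0.187 in the controls. Both Bromo+/- values were below both controls, a mean of 0.121 ± 0.00379 against 0.189 ± 0.00239 (SD, n = 2 each). No test was made, since 2 against 2 libraries cannot give a two-sided exact permutation p below 0.333. The log2 difference of the ratio was -0.64, -1.21 without BID, the most abundant BH3-only member, and -0.39 when counts were not divided by length. The size of the difference rests on which genes are counted. With the other listed genes of each class added, a choice made after seeing the data (BAD, BBC3 and HRK; BCL2L2 and BCL2L10), the BH3-only sums were 40.7 and 39.7 scaled RPKM in Bromo+/- and 43.1 and 44.0 in the controls, the ratio was 0.226 and 0.211 against 0.248 and 0.243, and its log2 difference was -0.17. BAD and BBC3 were both higher in Bromo+/-, BAD at 15.5 and 14.4 against 10.1 and 9.92 scaled RPKM. Among single pairs, PMAIP1 over its partner MCL1 was 0.0509 and 0.048 against 0.101 and 0.102, and BCL2L11 over BCL2 was 2.07 and 1.58 against 4.01 and 3.77. MCL1 over BCL2L1 was 2.59 and 2.77 in Bromo+/- and 2.02 and 2.18 in the controls. These pairs were chosen as known binding partners or as the 2 abundant guardians, and they describe transcripts, not proteins.

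**Figure D4:**
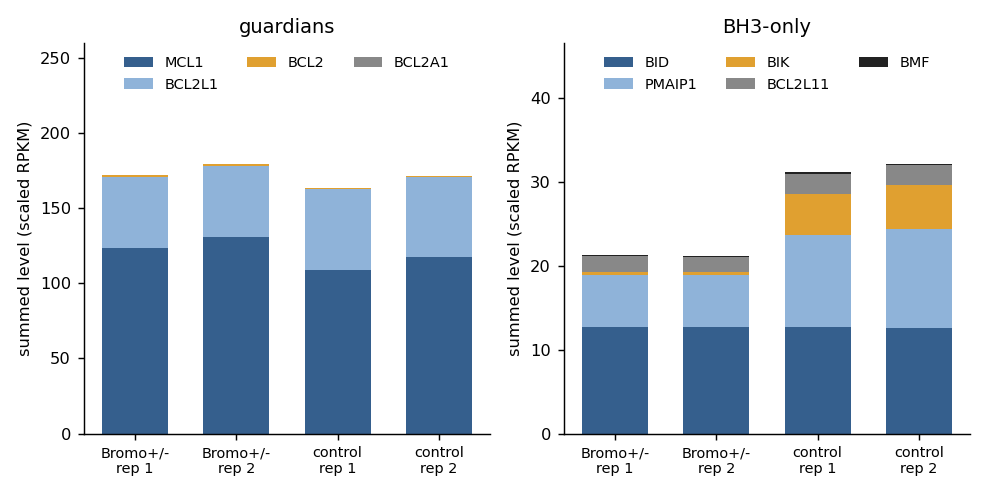
Summed scaled RPKM of the guardian members (left) and the BH3-only members (right) in each library, stacked by gene, both axes starting at 0 but with different ranges. The guardian bars are of like height, at 163 to 179, and the BH3-only bars are lower in Bromo+/-, where the PMAIP1 and BIK blocks shrink and the BID block does not.

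The genes nearest to BCL2 in pattern, by Euclidean distance of centred log2 CPM over the 4 libraries, were ASIC1 (distance 0.0649, log2 fold change 0.81), ENSG00000261799 (0.0739, 0.76) and GNAL (0.0888, 0.85). Nearest to BIK were INHBA (distance 0.09, log2 fold change -3.31), the antisense gene LURAP1L-AS1 (0.136, -3.62) and S100A2 (0.15, -3.38). These values carry a prior count of 2, which pulls low counts together and shrinks the difference of BIK. With no prior count, an alternative chosen after seeing the data, the 3 genes nearest to BCL2 were the same, and none of the 3 nearest to BIK was: the first was CBLC (distance 0.0667, log2 fold change -3.80). With 2 groups of 2 libraries such a likeness is mostly a like difference between the groups. INHBA, an activin subunit, and S100A2, a calcium-binding protein of basal epithelium, were far more abundant than BIK, at 201 and 2590 CPM in the controls.

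Other family members split between the directions. Of 13 listed, 9 were tested, with a median log2 fold change of 0.09. Among them 4 rose and 3 fell, against 26.4% and 27.1% of all tested genes. BBC3, which encodes the BH3-only protein PUMA, rose from 5.64 and 6.14 CPM in the controls to 12.2 and 12.8 CPM (log2 fold change 1.08, SE 0.17, adjusted p = 6e-10, edgeR). BNIP3, a mitophagy receptor with a divergent BH3 region, rose by 1.08 and the effector BAX by 0.46 on the log2 scale. BAD, a BH3-only gene named here after its values were seen, rose from 17.2 and 16.9 to 26.5 and 24.6 CPM (0.58, SE 0.11), though GPR137 exons on the opposite strand overlap 23.7% of it and leave its count uncertain. BAX and BBC3 are p53 targets and were left out of the members for that reason, while PMAIP1 was kept. So 2 pro-apoptotic p53 targets rose, while PMAIP1, also known to respond to p53, fell. The effectors also differed in direction, BAX higher and BAK1 lower, and the related BOK fell from 53.4 and 51.8 to 32.4 and 31.6 CPM (-0.71, SE 0.08). BCL2L12 (-0.34) and the guardian BCL2L2 (-0.27) fell as well, BCL2L2 no longer past the threshold with library size alone, with the DESeq2 Wald test and without Bromo+/- replicate 1 (adjusted p = 0.0584, 0.0825 and 0.0714). IRF3 exons overlap 33.1% of BCL2L12, and the strand setting of the counting is not given in the sources used here, so the count of BCL2L12 is uncertain.

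Of 20 genes of the apoptosome, the caspases and their inhibitors, 14 did not pass, beside 6124 of all 13179 tested genes. In this list 3 rose and 3 fell, against 26.4% and 27.1% of all tested genes. The list's median log2 fold change was -0.04. The initiator caspase gene CASP8 (0.33), AIFM1 (0.28) and CASP2 (0.20) rose, the last not with the DESeq2 Wald test or without Bromo+/- replicate 1 or control replicate 1 (adjusted p = 0.179, 0.0738 and 0.521). BIRC3, an inhibitor of apoptosis induced by NF-kB, fell from 112.7 and 125.2 to 31.6 and 35.1 CPM (-1.84, SE 0.08). CYCS, the gene of cytochrome c, fell by 0.35 on the log2 scale, and HTRA2 by 0.63, though exons of AUP1 and LOXL3 overlap part of HTRA2 and leave its count uncertain. APAF1 stood at 22.9 and 28.1 CPM in Bromo+/- and 22.6 and 26.2 in the controls and did not pass the threshold. The number of falls in this list was 5 without control replicate 1, and the number of rises was 6 with library size alone.

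Death receptors and adaptors moved in both directions. Of 15 listed, 11 were tested, with a median log2 fold change of -0.16. Among them 5 rose and 5 fell, against 26.4% and 27.1% of all tested genes. The TNF receptor gene TNFRSF1A rose from 92.0 and 85.7 to 164.5 and 162.8 CPM (0.88, SE 0.06). The TRAIL receptor genes split: TNFRSF10B, a death receptor, rose by 0.39 and TNFRSF10D, a decoy, by 0.65, while the death receptor gene TNFRSF10A fell by 0.64 on the log2 scale. TNFRSF21 fell from 208.2 and 207.9 to 105.8 and 105.9 CPM (-0.98, SE 0.06), and the adaptor TRADD by 0.45, not past the threshold with the DESeq2 Wald test and without Bromo+/- replicate 2 or control replicate 2 (adjusted p = 0.0945, 0.0707 and 0.063). The transcript of BID, whose protein links death receptors to mitochondria, did not pass. The number of falls in this list was 3 with upper quartile scaling or library size alone and 2 with the DESeq2 Wald test, without Bromo+/- replicate 2 or without control replicate 2.

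Among 18 listed partners and stability regulators of the family's proteins, 17 were tested, with a median of -0.20. In this list 9 fell and 3 rose, against 27.1% and 26.4% of all tested genes. The kinase genes PIM1 (-2.03, SE 0.09) and PIM3 (-1.03, SE 0.07), whose products inactivate the BH3-only protein BAD, fell most clearly. PIM1 stood at 20.5 and 16.7 CPM in Bromo+/- and at 78.2 and 74.1 CPM in the controls. The co-chaperone gene BAG3 fell by 0.55 on the log2 scale. MTCH2, the mitochondrial receptor of cut BID, rose by 0.22, USP9X, which deubiquitinates MCL1, by 0.16 and PIM2 by 0.27 on the log2 scale. The call for USP9X ended with the DESeq2 Wald test, without Bromo+/- replicate 2 and without control replicate 1 (adjusted p = 0.0753, 0.287 and 0.338), and that for PIM2 under 5 of 12 alternatives (adjusted p up to 0.465). The number of rises was 6 with upper quartile scaling or library size alone and 1 with the DESeq2 Wald test or without control replicate 1.

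Of 16 listed transcription factors known to act on family genes, 15 were tested, with a median of -0.26. Among them 9 fell and 2 rose, against 27.1% and 26.4% of all tested genes. TP63, the p53 relative of basal epithelium, fell from 233 and 262 counts to 3 and 5, a ratio of control to Bromo+/- of 62.4 from the summed counts (95% exact binomial interval 31.4 to 145, counting error only). Like BIK, it entered the test through its control counts, was near the 3-count floor in Bromo+/-, and was removed by the filter of 10 counts in every library. NFKB2 fell by 0.94 and JUN by 0.55 on the log2 scale. The FOXO family, which drives BCL2L11 and BMF when growth signals cease, split. FOXO1 rose from 19.2 and 20.9 to 43.9 and 46.7 CPM (1.17, SE 0.10). FOXO3, named here after its values were seen, fell from 39.4 and 46.4 to 34.1 and 35.9 CPM (-0.30, SE 0.09). BCL2L11 fell and BMF was too low to be tested. The number of rises in this list was 1 under 6 of 12 alternatives: DESeq2 size factors, no filter, the DESeq2 Wald test, and without Bromo+/- replicate 1 or either control replicate. Factor activity was not measured, and these values stand beside those of the members without a test of a link.

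**Figure D5:**
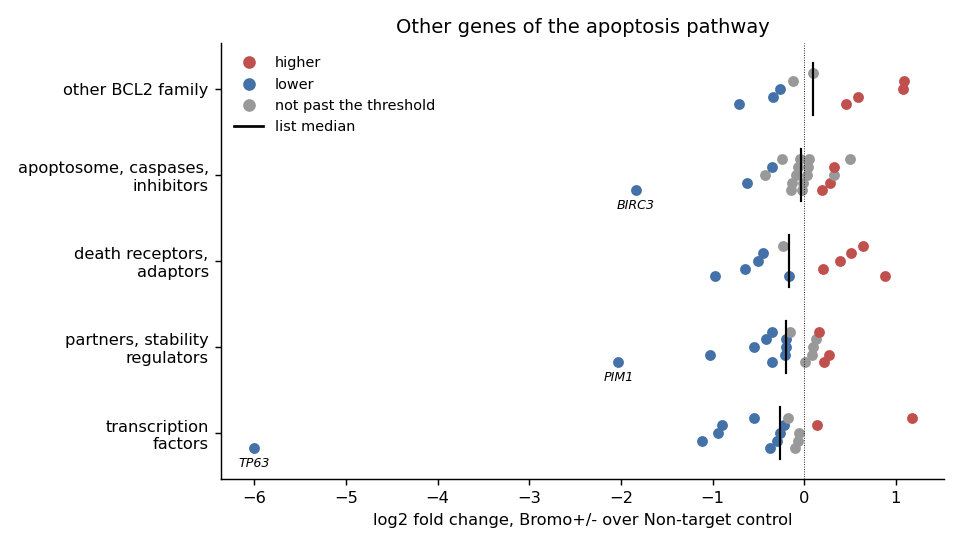
Log2 fold change of Bromo+/- over Non-target control for each tested gene of 5 lists of other apoptosis genes, coloured by call, with a black line at each list's median. Medians lie between -0.26 and 0.09, and TP63 (3 and 5 counts in Bromo+/-), PIM1 (-2.03) and BIRC3 (-1.84) stand apart.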

How the data were processed

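RNA-seq was done on 4 libraries of MCF10AT cells. The table holds raw counts per Ensembl gene as the authors deposited them, with no normalization. STAR (alignment to GRCh38) and featureCounts 1.5.2 (counting) are named in the submitters' processing notes. Which annotation release, which strand setting and which rule for multi-mapping reads were used is not given in the sources used here. Columns were matched to samples by name, with WT read as the counterpart of the +/- genotype. A table of current symbols named 57392 identifiers, GENCODE v29 named 503 more, and 338 stayed unnamed.

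The fit used edgeR 4.0.16 under R 4.3.3: filterByExpr, TMM factors of 0.968 to 1.03, and the robust quasi-likelihood test at an adjusted p (Benjamini-Hochberg) of 0.05 over all 13179 genes tested. Error estimates are pooled across genes (255.1 total degrees of freedom, of which 2 come from a gene's own libraries). SEs are those of the fitted coefficients. Scaled RPKM is TMM-scaled CPM per kilobase of the deposited exon length. Within groups, a chi-square per degree of freedom of 2.44 (Bromo+/-) and 1.56 (control) exceeded sampling noise, so no library was treated as a copy. Library totals of 10835237 to 11975396 set the 3-count floor at 0.251 to 0.277 CPM. Floors and intervals cover counting error only.

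On simulated counts (12628 genes), 75.8% of true log2 changes of 0.5 were called, 86.4% of those of 1 and 98.5% of those of 2. There were 7 calls among 12430 unchanged genes. The simulation gave 66 genes to each size of change, far fewer than the 53.5% called in the data. It took its noise from the spread between these libraries and raised the lowest means. These rates therefore check the code and are not the sensitivity or false-call rate of the comparison, and they leave out variation between clones.

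Members, gene lists and motifs were chosen with earlier results of these data known. Named are all members, EP300, up to 3 higher and 3 lower genes with the smallest adjusted p of each other list, and the 3 genes (average log2 CPM of at least 2) nearest in pattern to the members with the largest rise and fall. Others, such as APAF1 and the low-count genes at the end, were picked with their values in view. A few listed genes are not reported here. Alternatives were the size factors and Wald test of DESeq2 1.42.0, limma-voom (limma 3.58.1), scaling by upper quartile or by library size, no filter on counts, 10 counts in every library, the replicate number as a block, and each library left out.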

Additional observations from a re-analysis of the deposited data

How the results depend on the processing

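BCL2, BIK and PMAIP1 kept direction and call under every alternative that gave them a value. The number of members lower was 5, and 3 with upper quartile scaling, library size alone and the DESeq2 Wald test. With 1 library left out it ranged from 3 to 5, and the number higher from 1 to 2. The log2 fold change of BID, not called, was -0.0037 with no filter and ranged from -0.0067 to 0.0107 with 1 library left out. The log2 difference of the BH3-only to guardian ratio was -0.39 when counts were not divided by length, -1.21 without BID and -0.17 with the other listed BH3-only and guardian genes, added after seeing the data. Scaling by library size alone gave 4433 genes higher and 2794 lower of all called, against 3485 and 3570. Upper quartile scaling gave 4133 and 2985, and the DESeq2 Wald test 2292 and 2592. Counts for the members and the other lists under these settings stand beside these shifts. As a replicate block, the shared numbers gave 7271 calls over all genes, against 7055, and changed no member's call. Deviations of same-numbered libraries correlated at 0.0484 across genes, so the numbers are not taken to pair them. Without a library, the lone one of its group is assumed to vary like the others. BCL2A1 and BMF are limited by depth, and BIK by the 8 counts in Bromo+/-. Of the values for single genes and other lists under an alternative, 530 kept direction and side of the threshold (for counts, stayed within 1.5 times), 37 lost a call, 17 counts moved and 2 (BID) changed sign.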

Other observations

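Several apoptosis genes outside the members were too low to be tested. TNFRSF10C, a decoy receptor for TRAIL, had 23 counts in the Bromo+/- libraries together and 5 in the controls, a ratio of 4.56 (95% exact binomial interval 1.69 to 15.3, counting error only). The BH3-only gene HRK had 6 and 12 counts, a ratio of 0.495 (0.153 to 1.43). TNFSF10, the gene of TRAIL itself, had 6 and 9 counts. FASLG had 0 and 1, and the necroptosis kinase gene RIPK3 and the p53 relative TP73 had 0 counts in all 4 libraries. BCL2L10, a guardian known from the germ line, had 5 counts in Bromo+/- and 0 in the controls, and BCL2L14 and BCL2L15 had 3 and 7 counts in all.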
